A study of Canis lupus familiaris with 4 samples.

Results

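The comparison described here is that of J3T-2A with J3T-2, a canine glioblastoma line with overexpression of annexin A2 (ANXA2) and the line it was made from, which expresses little ANXA2. J3T-1 and J3T-2 are invasive glioma lines that go back to the same canine J3T cells, and the labels call each line a subclone. The other arrays of the study held J3T-1, which expresses much ANXA2, and J3T-1shA, its ANXA2 knockdown. All 4 lines were grown in the same serum-containing medium, and total RNA of each was hybridized to 1 Affymetrix Canine Genome 2.0 array, so 2 of the 4 arrays enter this comparison and no line has a replicate. Whether J3T-2 carried an empty vector, and how many clones make up J3T-2A, is not given in the sources used here.

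Of 15115 genes with a probe set of a single symbol, 6860 reached a MAS5 signal of 250 on the brighter of the J3T-2A and J3T-2 arrays and were taken as measured. MAS5 signals are intensities on a linear scale, with each array scaled to the same trimmed mean. Each gene was read from its brightest probe set. With 1 array per line there is no test, and a ratio over 2 is a description of a pair of arrays. In RNA of whole cultures, fewer cells that express a gene and less RNA per cell cannot be told apart. Other probe sets of the same genes gave a measure of spread within an RNA sample: where another one also reached the limit, its log2 ratio differed from the first with an SD of 0.29 over 3718 genes. Variation between cultures is not covered by this figure.

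On the array labelled J3T-2A, 116 of the measured genes (1.69%) had over 2-fold higher signals than on J3T-2 and 144 (2.10%) had over 2-fold lower signals, while 96.2% were within 2-fold and the median log2 ratio was 0.00. In 55 of the higher and 54 of the lower genes the dimmer array also reached 250, and the other calls rest on a signal under the limit on one side. A second reading was possible for 79 of the 260 genes, of which 77 had the same sign and 51 were over 2-fold different again. With 80 added to each signal, 88 genes were higher and 86 were lower. Angiogenic, matrix and interferon response genes held 16 of the higher and 6 of the lower genes and are left aside here, apart from a few named below by the rule for the largest ratios. The other genes were sorted into 105 lists of pathways and gene families, which held 59 of the higher and 76 of the lower genes. Where signals are given below as a value against another, that of J3T-2A comes first.

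ANXA2 itself was bright on every array, at 30102 on J3T-2, 28775 on J3T-2A, 28656 on J3T-1 and 30093 on J3T-1shA, and the log2 ratio of J3T-2A over J3T-2 was -0.07, or 0.23 by a second probe set. These signals lie near the top of the scale, whose highest value was 46646, and their order does not follow the ANXA2 labels. Whether the probe sets read the introduced transcript is not given in the sources used here, so the arrays are named by their labels throughout.

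**Figure D1:**
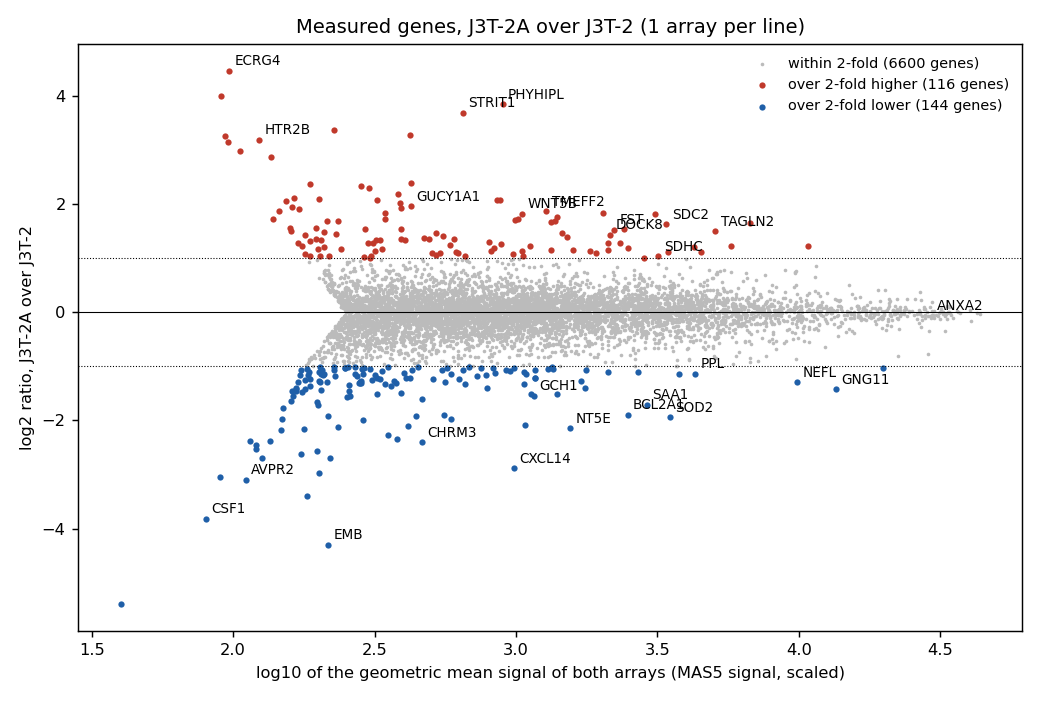
Each point is 1 of the 6860 measured genes, placed by the log10 of its geometric mean signal on both arrays (x axis) and by its log2 ratio of J3T-2A over J3T-2 (y axis), with 1 array per line. The 116 genes over 2-fold higher are red and the 144 over 2-fold lower are blue; dotted lines mark a ratio of 2 in each direction, and the spread of the grey points widens towards low signals.

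Annexin A2 binds phospholipids in a calcium-dependent way and works at the plasma membrane, where it takes part in membrane traffic, in links between membrane and actin, and in the assembly of plasmin-generating complexes. In glioblastoma cells such membrane and secreted functions meet signalling by growth factors, cytokines and guidance cues, which glioma cells use to move along vessels and fibre tracts. The results are therefore ordered from secreted ligands and receptors through adhesion, cytoskeleton and intracellular messengers to metabolism, protein turnover, the nucleus and inflammation, after a description of how the differences lay along the chromosomes.

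Most genes of 3 dog chromosomes lay on the same side of 0. The measured genes were placed by the gene order of the German Shepherd assembly UU_Cfam_GSD_1.0, used for names and neighbours only, and 6855 of 6860 could be placed on 39 chromosomes. The 246 genes of chromosome 8 had a median log2 ratio of -0.48, and 231 of them were below 0. The median was -0.26 for 85 genes of chromosome 34 and 0.44 for 62 genes of chromosome 38, 56 of which were above 0. The medians of the other 36 chromosomes lay between -0.09 and 0.10. These chromosomes were singled out after their values were seen. DNA copy number was not measured in this series.

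The shift of chromosome 8 ran along its whole length. All 232 runs of 15 neighbouring measured genes on it had medians between -0.76 and -0.34, and second probe sets gave a median of -0.49 over 145 genes. A shift of this size is under 2-fold, and most genes of the chromosome were therefore not counted as different. It nevertheless held 16 of the 144 lower genes, or 11.1% of them, against 3.59% of the placed genes, and 1 of the higher ones, the unnamed locus LOC610399. Among the 16 were GCH1, FOS, GNG2, AKAP5, GALNT16, ARID4A and TNFAIP2, which return below in their families. Others were ATL1, SMOC1, DCAF5, DCAF11, TRIP11, SYNE3, PACS2 and TTC8, which were chosen after their values were seen. ATL1, the endoplasmic reticulum-shaping GTPase atlastin, had signals of 288 on J3T-2 and 50.1 on J3T-2A. DCAF5, a substrate receptor of a ubiquitin ligase, had 1101 on J3T-2 and 484 on J3T-2A, and 792 and 374 by a second probe set.

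Chromosome 38 held a graded pattern with its strongest part near the end of the gene order. From SDHC to TAGLN2, all 15 measured genes were above 0, with a median log2 ratio of 0.92 and 6 genes over 2-fold higher, and the second probe sets of 11 of them gave a median of 0.94. SDHC, which encodes a membrane anchor subunit of succinate dehydrogenase, had signals of 2223 on J3T-2 and 4566 on J3T-2A, and its second probe set had 2106 and 4310.5. UFC1, the conjugating enzyme of the ubiquitin-like protein UFM1, had 1232 on J3T-2 and 2721 on J3T-2A, and PFDN2, a subunit of the prefoldin chaperone, had 1306 on J3T-2 and 2799 on J3T-2A. TAGLN2, the actin-binding transgelin-2, had 3008 on J3T-2 and 8532 on J3T-2A. NIT1, an amidase, and B4GALT3, a galactosyltransferase, were the other genes of the stretch over 2-fold higher, at 1522 against 737 and 315 against 123. The preceding 25 genes, from KCTD3 to ATF6, had a median of 0.38 with 24 above 0, and none was over 2-fold different. The 20 genes before them had a median of 0.18. In all, chromosome 38 held 7 of the 116 higher genes with 0.904% of the placed genes.

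The array that departed from the others was that of J3T-2 for the chromosome 8 genes and for the SDHC to TAGLN2 stretch, but not for the rest of chromosome 38. Relative to each gene's mean log2 signal over the 4 arrays, the median deviation of chromosome 8 genes was 0.36 on J3T-2, -0.13 on J3T-2A, -0.08 on J3T-1 and -0.11 on J3T-1shA. For the SDHC to TAGLN2 stretch it was -0.72 on J3T-2, 0.27 on J3T-2A, 0.29 on J3T-1 and 0.24 on J3T-1shA. The other 47 genes of chromosome 38 did not follow this order. They had -0.15 on J3T-2, 0.15 on J3T-2A, -0.06 on J3T-1 and 0.00 on J3T-1shA, so J3T-2A stood apart there as much as J3T-2. Chromosome 34 did not follow it either, with 0.21 on J3T-2, -0.06 on J3T-2A, -0.21 on J3T-1 and 0.13 on J3T-1shA. For chromosome 8 and the stretch, J3T-2A thus lay with J3T-1 and J3T-1shA, and J3T-2 lay apart. J3T-2 is also the control of this comparison, and a property of the J3T-2 array and an effect of ANXA2 overexpression cannot be told apart with 1 array per line.

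**Figure D2:**
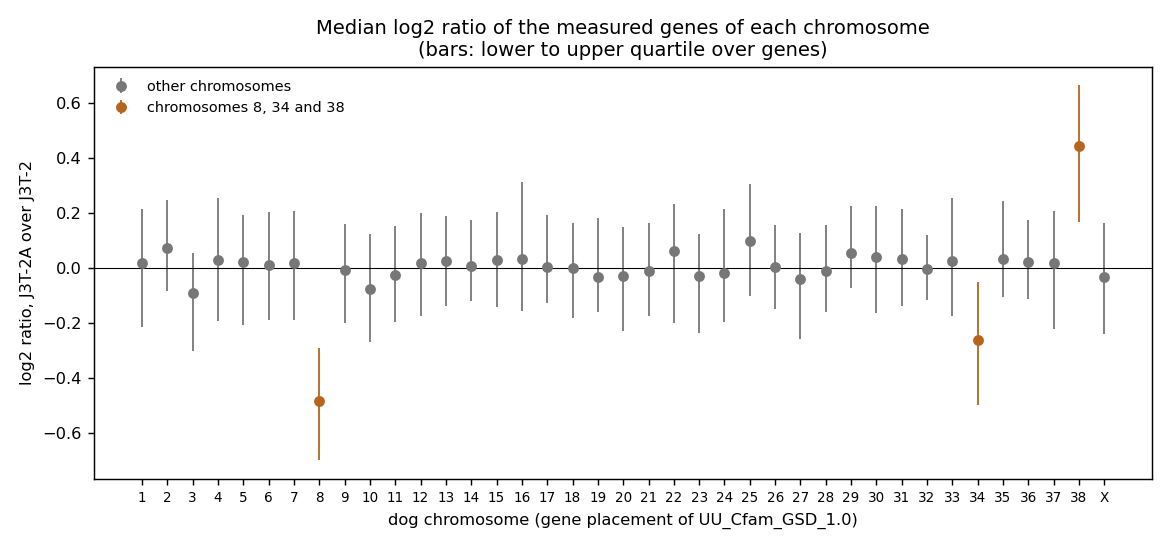
Median log2 ratio of J3T-2A over J3T-2 (y axis) of the measured genes of each of 39 dog chromosomes (x axis); bars run from the lower to the upper quartile over genes and do not show replicate error. Chromosomes 8 (median -0.48), 34 (-0.26) and 38 (0.44) are brown and the other 36, between -0.09 and 0.10, are grey.

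**Figure D3:**
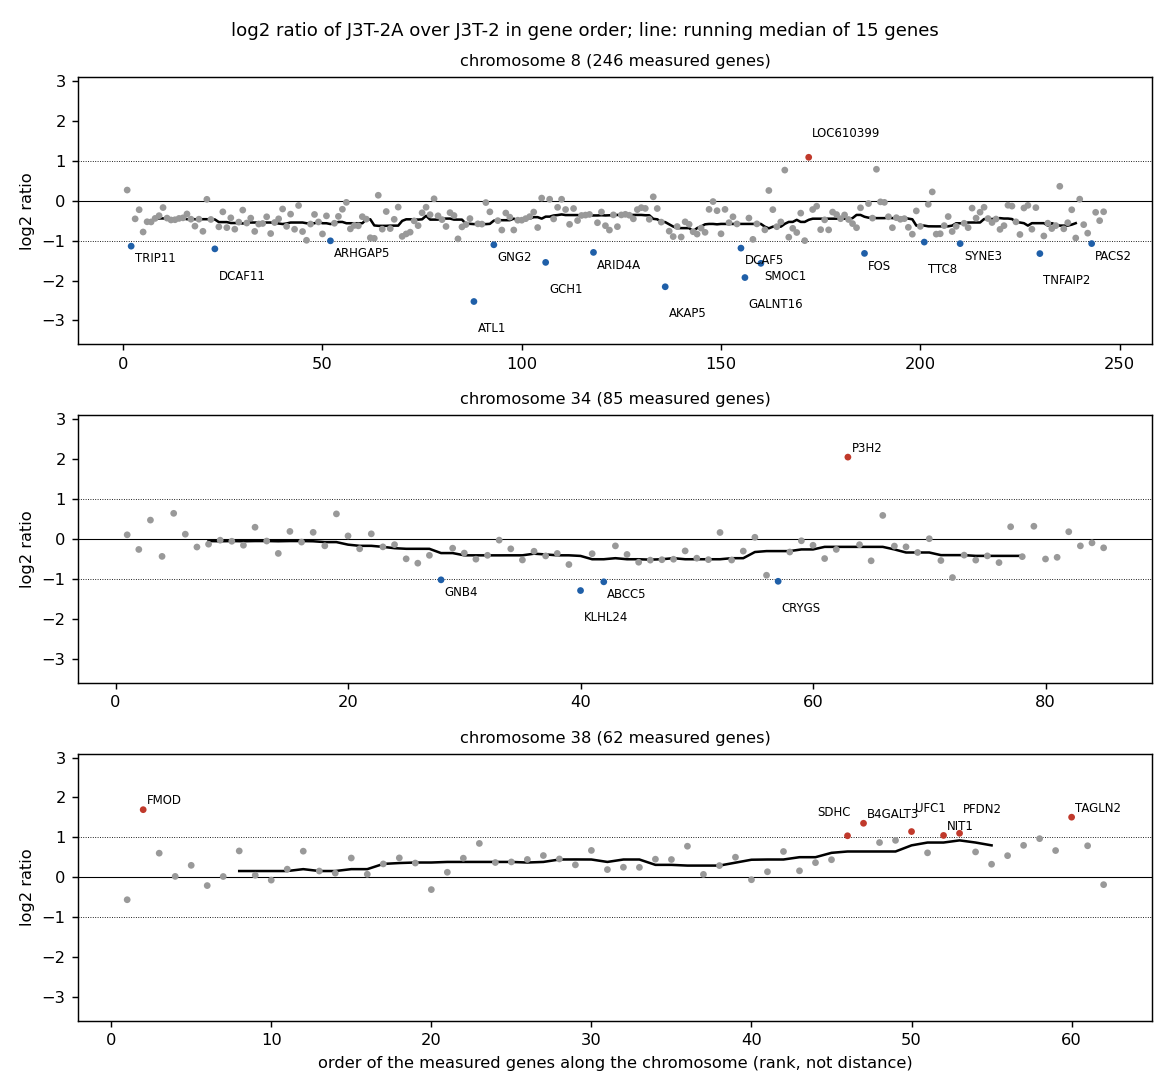
Log2 ratio of J3T-2A over J3T-2 (y axis) of the measured genes of chromosomes 8, 34 and 38 in gene order (x axis, rank and not distance), with the running median of 15 genes as a line and genes over 2-fold different coloured and named. The line stays below 0 along all of chromosome 8 and is highest, up to 0.92, near the end of chromosome 38.

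Shorter runs of neighbours elsewhere had smaller medians, none beyond -0.45 or 0.49 for 15 genes. The highest, on chromosome 15 from MND1 to KLHL2, had a median log2 ratio of 0.49 and held GUCY1A1 and GUCY1B1, described below with the cyclic nucleotide genes. Without the genes of chromosomes 8, 34 and 38, 107 higher and 124 lower genes were left. Where a gene named below lies on chromosome 8, 34 or 38, this is stated beside it, and the part of the chromosome shift in its ratio was not tested.

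Gene families differed in how many members departed from 1 array to the other. Of the genes measured in each group of lists, 23.1% of 78 inflammation and immunity genes, 19.7% of 137 signalling ligands and receptors, 17.9% of 39 neural and lineage genes and 13.3% of 83 guidance and adhesion genes were over 2-fold different, against 3.79% of all measured genes. The share was 7.08% for 226 cytoskeletal genes, 6.64% for 226 second messenger genes, 4.74% for 190 channels and transporters and 4.12% for 582 metabolic genes. It was 2.13% for 610 genes of the nucleus and cell cycle and 1.01% for 494 genes of protein synthesis and turnover. Signal level moved with these shares in part: the median signal was 574 for signalling genes and 2412 for protein synthesis and turnover, against 939 for all measured genes, while that of inflammation genes was 898. Its part in them was not tested. The lists were written with earlier results of these data known, and a gene could enter through its brighter array alone. The shares are therefore descriptions and not tests of the groups. Counts of list members given below stand beside 1.69% over 2-fold higher and 2.10% over 2-fold lower among all measured genes. With 3.79% of all measured genes over 2-fold different, a short list can hold no such gene without differing from the rest.

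**Figure D4:**
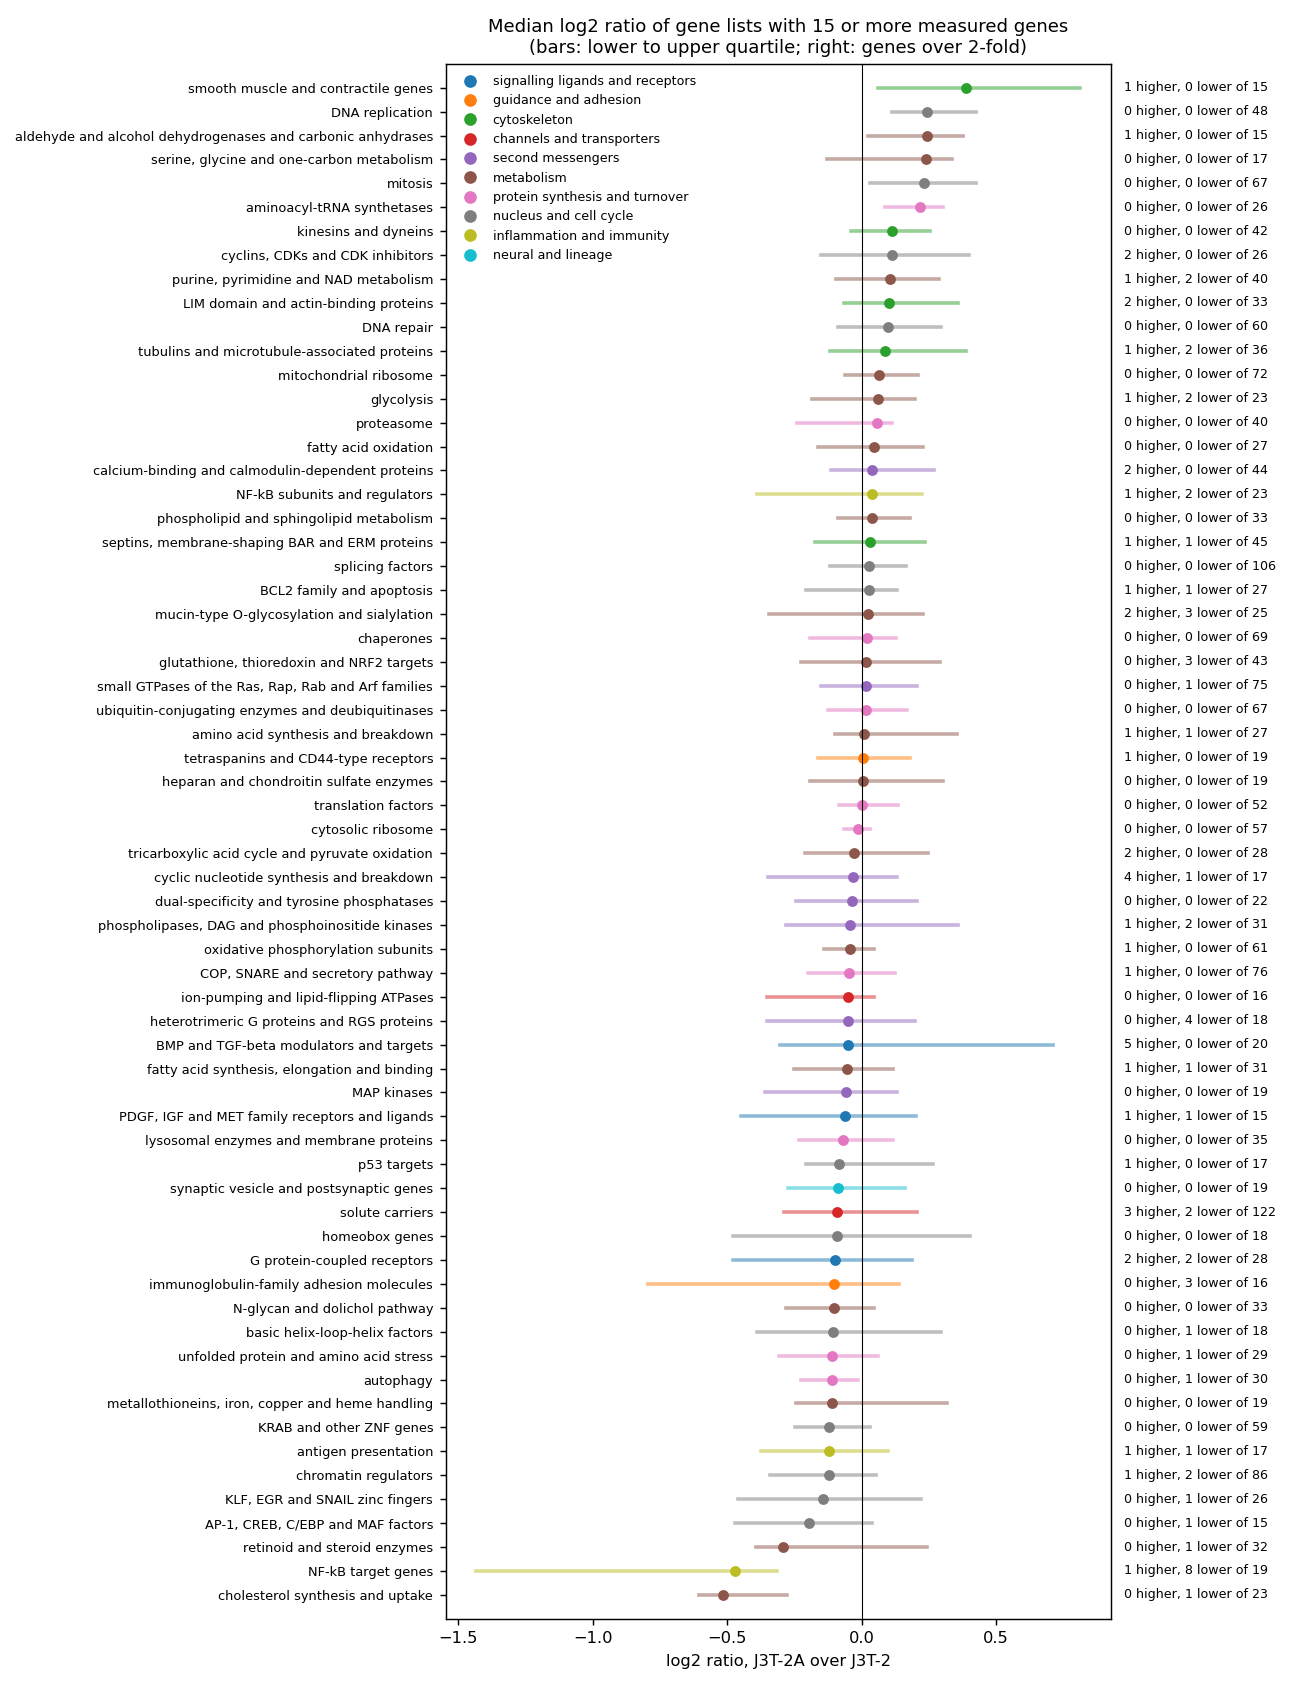
Median log2 ratio of J3T-2A over J3T-2 (x axis, dots) of 64 gene lists with 15 or more measured genes, coloured by group, with bars from the lower to the upper quartile over genes and the number of members over 2-fold higher and lower at the right. Cholesterol synthesis (-0.52) and NF-kB target genes (-0.47) lie furthest to the left, and the contractile genes (0.39) furthest to the right.

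Extracellular and membrane-bound antagonists of the BMP and activin pathways were among the brighter genes of J3T-2A. BMPs and activins are ligands of the TGF-beta family that signal through SMAD proteins, and several extracellular proteins bind or shield them. Of 20 measured modulators and targets, 5 had over 2-fold higher signals and none had over 2-fold lower ones. Among all measured genes the shares were 1.69% and 2.10%. The list's median log2 ratio was nevertheless -0.05. FST, the activin-binding follistatin, had signals of 1312 on J3T-2 and 3777 on J3T-2A, with 1314 on J3T-1 and 1193 on J3T-1shA, so that J3T-2A stood above the other 3 arrays. TMEFF2, a transmembrane protein with follistatin domains, had 670.4 on J3T-2 and 2443 on J3T-2A, and 570.0 and 1622 by its second probe set. BAMBI, a decoy receptor of the TGF-beta family, had 667 against 229.7, the lower signal being under the limit. CHRDL1, a chordin-like BMP antagonist, had 486 on J3T-2A and under the limit on J3T-2, and LTBP1, which holds latent TGF-beta in the matrix, had 264 against 108. The SMAD genes lay slightly below 0. SMAD1, SMAD2, SMAD4, SMAD5 and SMAD6, named after their values were seen, had log2 ratios between -0.37 and -0.06, and the SMAD targets ID1 and ID3 had -0.04 and 0.33. Among 13 ligands and receptors, BMP6 had 1264 against 512 and was 2.47-fold higher, and ACVR2A, an activin receptor, had 127 against 271 and was 2.14-fold lower.

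Wnt ligands act through Frizzled receptors on beta-catenin and on cell polarity. WNT5B, a ligand mostly linked to the beta-catenin-independent arm, had signals of 559 on J3T-2 and 1976 on J3T-2A, with 1742 on J3T-1 and 4796 on J3T-1shA. It was the only one of 6 measured ligands and receptors over 2-fold different. Of 7 antagonists and targets, 6 had log2 ratios above 0. DKK3, a secreted Dickkopf family member, had 6648 against 3049, and 1554 against 607 by its second probe set. GPC3, a glypican that binds Wnt and Hedgehog ligands, had 284 against 32.1, the lower signal being well under the limit. Of 3 measured Hedgehog pathway genes, GAS1, a co-receptor, had 199.9 against 476 and SCUBE3, a secreted protein of a family that takes part in ligand release, had 413 against 203. None of 4 Notch, 6 FGF, 4 EGF and neuregulin or 4 neurotrophin and GDNF family genes was over 2-fold different. In lists this short, that is near the share of 3.79% among all measured genes.

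Among receptors of growth factors, MET, the receptor tyrosine kinase for hepatocyte growth factor, had signals of 671 on J3T-2 and 1410.5 on J3T-2A and was 2.10-fold higher, while HGF, its ligand, had 298 against 1163 and was 3.90-fold lower. On J3T-1 and J3T-1shA, MET had 760.1 and 2421 and HGF had 218 and 27.5, so HGF was brightest on J3T-2. IGFBP5, which binds insulin-like growth factors, had 144 against 576. Of 28 measured G protein-coupled receptors, 2 had over 2-fold higher and 2 over 2-fold lower signals. EDNRA, the endothelin A receptor, had 758 against 294, and HTR2B, a serotonin receptor coupled to phospholipase C, had 374 against 40.9. CHRM3, a muscarinic acetylcholine receptor, had 203 against 1068, and AVPR2, the vasopressin V2 receptor, had 37.9 against 324. For the last 3 of these receptors the dimmer of both arrays was under the limit.

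Of the chemokines, which guide leukocytes, most measured ones had lower signals in J3T-2A. Of 6 measured chemokines outside the angiogenic and interferon lists, 4 had over 2-fold lower and 1 over 2-fold higher signals. Among all measured genes the shares were 2.10% and 1.69%. The median log2 ratio of the chemokines was -1.16. Only CXCL14 and CCL2 reached the limit on both arrays, so this median rests mostly on genes that entered through their brighter array alone. CXCL14 had signals of 2664 on J3T-2 and 361 on J3T-2A, with 373 on J3T-1 and 606 on J3T-1shA, and its second probe set had 2383 and 310.2. It had the largest ratio among lower genes over the limit on both arrays, and J3T-2 was the bright array of the 4. CCL20, CCL24 and CCL7 had 182 against 413, 112 against 420.0 and 182 against 400.3, each under the limit on J3T-2A. CCL7 was at 8.70 and 5.20 on J3T-1 and J3T-1shA. CCL2, the brightest chemokine of the list, had 18212 against 22771, a log2 ratio of -0.32. CXCL16 differed from the rest with 432 against 216. CXCL10, from the interferon response genes, had 268 against 809.7.

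Of 13 interleukins, colony-stimulating factors and cytokine receptors, CSF1, the growth factor of macrophages and microglia, had the largest ratio, with signals of 300.0 on J3T-2 and 21.3 on J3T-2A, 168 on J3T-1 and 19.7 on J3T-1shA. IL18BP, the secreted inhibitor of interleukin-18, had 1094 against 2627, and IL17RC, a chain of the interleukin-17 receptor, had 143 against 287. IL13RA2, a decoy receptor of interleukin-13, had 386 against 119.7. IL11, an interleukin-6 family cytokine that no list held and that was named for the size of its ratio, had 522 against 2221. None of 9 TNF superfamily ligands and receptors was over 2-fold different, with a median log2 ratio of -0.40.

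Cues that steer axons and migrating cells differed in both directions. Of 12 measured semaphorins, plexins and neuropilins outside the angiogenic list, 2 had over 2-fold higher and 2 over 2-fold lower signals. SEMA3C, a secreted semaphorin, had signals of 253 against 76.1, and SEMA7A, which is bound to the membrane by a lipid anchor, had 268 against 115. The secreted SEMA3F had 161 against 408, and the transmembrane SEMA4C had 139.8 against 310.3. In each case the dimmer array was under the limit. NTN3, a netrin, had 81.4 against 277.

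Adhesion molecules of the immunoglobulin family were dimmer where they differed. Of 16 measured, 3 were over 2-fold lower and none was over 2-fold higher, against 2.10% and 1.69% of all measured genes. The median log2 ratio of the family was -0.10. EMB, the monocarboxylate transporter partner embigin, had signals of 958 on J3T-2 and 48.8 on J3T-2A, with 423 on J3T-1 and 78.7 on J3T-1shA. CADM4, a nectin-like adhesion molecule, had 1913 on J3T-2 and 672 on J3T-2A, with 228 and 109.9 on the other arrays. PECAM1, an adhesion molecule of endothelial cells and leukocytes, had 161 against 773. Of 13 cadherins, catenins and desmosomal proteins, PPL, the desmosome-linked cytolinker periplakin, had 2898 against 6357, and 446 against 1084 by its second probe set. Of 11 integrins, ITGB7 had 752 against 362, but its second probe set gave a log2 ratio of 0.22. SDC2, the heparan sulfate proteoglycan syndecan-2, had 1935 on J3T-2 and 5972 on J3T-2A, 7795 on J3T-1 and 5872 on J3T-1shA, and a second probe set gave 2636 against 788. J3T-2 was the dim array for SDC2, below all others. None of 4 gap and tight junction genes and none of 3 protocadherins was over 2-fold different.

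Contractile genes mostly had log2 ratios above 0. Of 15 measured contractile genes, 11 had log2 ratios above 0 and the median was 0.39, although only STRIT1 was over 2-fold higher. STRIT1, a small peptide of muscle that acts on the calcium pump SERCA, had signals of 181 on J3T-2 and 2337 on J3T-2A, with 1351 on J3T-1 and 4024 on J3T-1shA. CNN1, MYL9, TPM1 and CALD1, named as examples after their values were seen, had log2 ratios of 0.97, 0.96, 0.86 and 0.77. They encode calponin, a myosin light chain, a tropomyosin and caldesmon. TPM1 and CALD1 exceeded 2-fold by their second probe sets, at 1.34 and 1.09. Between J3T-1 and J3T-1shA the same list had a median of -0.81, with 9 of 23 over 2-fold lower on the J3T-1 array; the difference between the comparisons was not tested.

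LMO7, a LIM and calponin-homology protein of actin-linked junctions, had signals of 1081 on J3T-2 and 3842 on J3T-2A, and 972 and 2869.6 by a second probe set. PHLDB2, a protein of the cell cortex near adhesions, had 902 against 381, and 2313 on J3T-1. These 2 were the members over 2-fold different in a list of 33 LIM domain and actin-binding proteins. That list did not hold TAGLN2, given above, or MICAL2, given below, and both were also over 2-fold higher. DOCK8, an activator of the GTPase CDC42, had 1309.5 on J3T-2 and 3537 on J3T-2A, 5151 on J3T-1 and 5932 on J3T-1shA, so that J3T-2 was again the dim array. The actin nucleation regulator WASF1 had 178 against 439.6 and a second log2 ratio of -0.56. BIN1, a membrane-bending BAR protein, was 3.21-fold higher by the brightest of its 4 probe sets (2456 against 765), whereas its second had 826 against 962. The log2 ratio was -0.22 by the second and -0.25 by each of the remaining ones. SEPTIN4 had 727 against 1562.

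Of 36 tubulin and microtubule genes, TUBA4A had signals of 294 against 118, and CLIP2 and DCLK2, which bind microtubules, had 116 against 301 and 137 against 304. No kinesin or dynein of 42 measured was over 2-fold different. Among 9 intermediate filament genes, NEFL, the light neurofilament chain, had 15463 on J3T-2 and 6292 on J3T-2A, with 2561 on J3T-1 and 2134 on J3T-1shA. The simple-epithelium keratins KRT7 and KRT8 had 527 against 1071 and 288 against 1076. All 3 were brighter on J3T-2, and NEFL and KRT8 were brightest there of the 4 arrays.

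Channels and transporters differed little as families. Of 122 measured solute carriers, SLC1A3, a glutamate transporter of glia, had signals of 3999 against 1996. SLC37A2, a sugar-phosphate exchanger, had 969 against 378 and a second log2 ratio of 0.91. SLC25A30, a mitochondrial carrier, had 361 against 160.2. SLC27A1, a fatty acid transport protein, had 90.3 against 283, and SLC4A4, a sodium bicarbonate cotransporter, had 272 against 592 and 206 against 429 by its second probe set. The export pump ABCC5, on chromosome 34, had 805 against 1694 and was over 2-fold lower by both probe sets. CLIC3, a chloride intracellular channel protein, had 570.3 against 1248, CNGB1, a cyclic nucleotide-gated channel subunit, had 103 against 269.9, and P2RX1, an ATP-gated channel, had 182 against 437. Of 3 potassium channels, 16 ion-pumping and lipid-flipping ATPases and 13 subunits of the vacuolar ATPase, none was over 2-fold different.

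Of 17 measured genes of cyclic nucleotide synthesis, breakdown and response, 4 had over 2-fold higher signals in J3T-2A and 1 had a lower one. The list as a whole had a median log2 ratio of -0.03, with 8 genes above 0 and 9 below. Soluble guanylate cyclase is a heterodimer that nitric oxide activates, and natriuretic peptide receptors are guanylate cyclases of the membrane. GUCY1A1 and GUCY1B1, the subunits of the soluble enzyme, had signals of 215 on J3T-2 and 836 on J3T-2A and of 557 on J3T-2 and 1263 on J3T-2A. On J3T-1 they had 1842 and 1011, and on J3T-1shA 387 and 516, so J3T-2A and J3T-1, the lines labelled as the higher in ANXA2 of each pair, had the brighter signals. The genes follow each other on chromosome 15 and lie in the run from MND1 to KLHL2 given above. NPR2, a natriuretic peptide receptor, had 506 against 201, and PRKAR2B, a regulatory subunit of protein kinase A, had 295 against 109.8. AKAP5, which anchors protein kinase A and lies on chromosome 8, had 84.7 against 377. The other 12 genes of the list were within 2-fold.

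**Figure D5:**
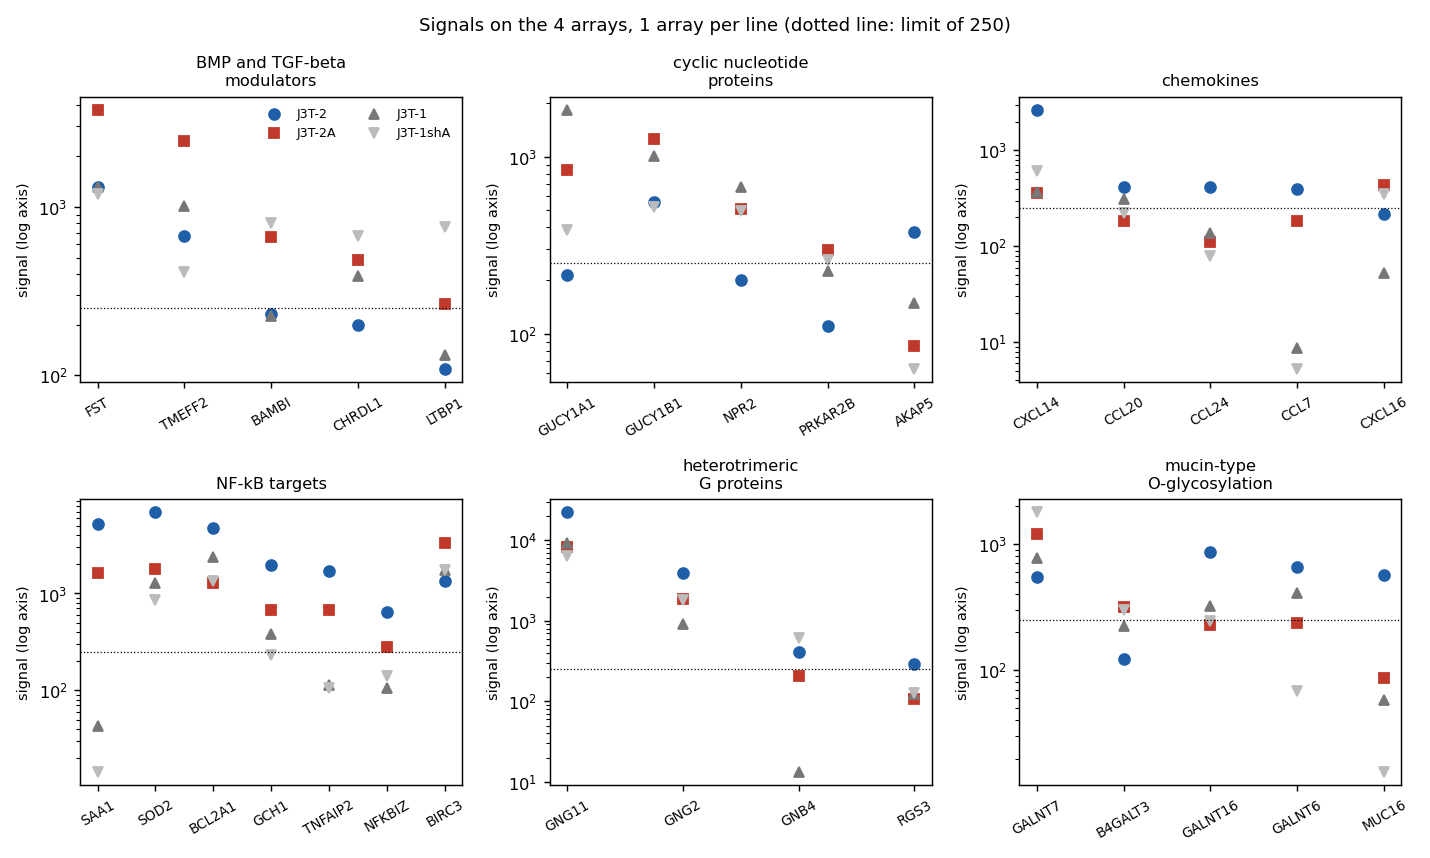
Signals (y axis, log scale) of genes over 2-fold different between J3T-2A (red squares) and J3T-2 (blue circles) in 6 gene families, with J3T-1 and J3T-1shA in grey and 1 array per line; the dotted line is the limit of 250. NF-kB target genes other than BIRC3 are brightest on J3T-2 of the 4 arrays, and FST and TMEFF2 are brightest on J3T-2A.

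Heterotrimeric G proteins couple receptors to effectors, and RGS proteins act on them. Of 18 measured G protein and RGS genes, 4 were over 2-fold lower and none was over 2-fold higher. Among all measured genes the shares were 2.10% and 1.69%. The list as a whole had no common direction, with 9 genes above 0, 9 below and a median log2 ratio of -0.05. Without the members on chromosomes 8, 34 and 38 the median was 0.11. GNG11, a gamma subunit and one of the brightest genes to differ, had signals of 22136 on J3T-2 and 8250.3 on J3T-2A, with 9178 on J3T-1 and 6453 on J3T-1shA, and its second probe set gave 775 against 2747. GNG2, also a gamma subunit, had 1848 against 3968 and lies on chromosome 8. GNB4, a beta subunit, had 204 against 415 and lies on chromosome 34. RGS3, which speeds the shut-off of G proteins, had 105 against 291. GNB4 had 13.2 on J3T-1 and 607 on J3T-1shA, so that its highest signal lay outside this pair.

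Of 31 phospholipase, diacylglycerol and phosphoinositide genes, PLPP3, a membrane phosphatase of lysophosphatidic acid, had signals of 199.9 against 857, and 145 against 465 by its second probe set. Its relative PLPP7 had 152 against 344, and PLA2G7, a secreted phospholipase that hydrolyses platelet-activating factor, had 739 against 345. The calcium-regulated kinase CAMK1D had 470.3 against 214 and the calcineurin inhibitor RCAN1 had 627 against 246, both over 2-fold higher among 44 calcium-binding and calmodulin-dependent genes. Of 75 small GTPases of the Ras, Rap, Rab and Arf families, only RAB20 was over 2-fold different (143 against 297). None of 19 MAP kinase pathway genes and none of 22 dual-specificity and tyrosine phosphatases was.

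Cholesterol synthesis and uptake formed the metabolic list with the lowest median. Of 23 measured genes, 19 had log2 ratios below 0 and the median was -0.52, against 0.00 for all measured genes. Only MYLIP, a ubiquitin ligase that degrades the LDL receptor, was over 2-fold lower (940.2 against 1895), with a second log2 ratio of -0.81. Named as examples after their values were seen, the synthesis enzymes EBP, CYP51A1, TM7SF2 and HMGCS1 had log2 ratios of -0.92, -0.89, -0.81 and -0.54, with -0.87, -0.99, -1.39 and -0.79 by their second probe sets. MSMO1, an enzyme of the same pathway, had 0.15. The only chromosome 8 member was NPC2, a lysosomal sterol carrier, at -0.48, and without the chromosome 8, 34 and 38 members the median was -0.53. In J3T-1 over J3T-1shA the list's median was 0.12.

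In central carbon metabolism the genes over 2-fold different were few. Of 23 glycolysis genes, PFKFB3, which makes the activator of phosphofructokinase, had signals of 1557 against 708. PDK2, an inhibitory kinase of pyruvate dehydrogenase, had 226 against 578, and the pyruvate kinase PKM had 765 against 1779.9 but a log2 ratio of -0.29 by another probe set. The glycolysis median was 0.06. In the tricarboxylic acid cycle and pyruvate list, SDHC and ME3, a mitochondrial malic enzyme (269 against 95.2), were the members over 2-fold different of 28. SDHC was also the only such gene among 61 oxidative phosphorylation subunits, whose other members lay between -0.51 and 0.28. The partner subunits SDHA, on chromosome 34, SDHB and SDHD had log2 ratios of -0.14, 0.02 and -0.21, so within the complex the gene of chromosome 38 stood alone. All 72 mitochondrial ribosome genes and all 27 fatty acid oxidation genes were within 2-fold.

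Other metabolic differences were found in lipid, amino acid and nucleotide enzymes. PNPLA2, a triglyceride lipase, had signals of 636 against 125, but 224 against 304 by a second probe set. The acyl-CoA synthetase ACSL4 had 480.2 against 962. CDO1, which oxidizes cysteine, had 192 on J3T-2 and 782 on J3T-2A, 4729.9 on J3T-1 and 644 on J3T-1shA, and IDO1, which starts tryptophan breakdown, had 191 against 543, with 10.3 and 12.5 on J3T-1 and J3T-1shA. NT5E, the surface enzyme CD73 that makes adenosine, had 3259 on J3T-2 and 738 on J3T-2A, and 963 and 279 by its second probe set. On J3T-1 and J3T-1shA it had 61.2 and 7.40, so that the gene was bright in the J3T-2 pair alone. CTPS2, a CTP synthase, had 69.9 against 431, and PFAS, an enzyme of purine synthesis, had 313 against 153. HSD11B2, which inactivates cortisol, had 49.6 against 320.5, PTGDS, a prostaglandin D synthase, had 175 against 356, and the aldehyde dehydrogenase ALDH2 had 866 against 315.

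Of the antioxidant genes, 3 of 43 were over 2-fold lower and none higher. SOD2, the mitochondrial superoxide dismutase, had signals of 6866 on J3T-2 and 1792 on J3T-2A, with 1287 on J3T-1 and 856 on J3T-1shA, and 391 against 1296 by a second probe set. GCH1, the first enzyme of tetrahydrobiopterin synthesis, had 679 against 1979.9, 296 against 774 by a second probe set, and lies on chromosome 8. SQSTM1, the autophagy receptor p62, had 1445 against 3092 and a second log2 ratio of -0.87. It was also the only member over 2-fold different of 30 autophagy genes, of which 23 had log2 ratios below 0 (median -0.11).

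Genes of mucin-type O-glycosylation differed in both directions. GALNT7 had signals of 1205 against 549 and a second log2 ratio of 0.81. GALNT16, on chromosome 8, and GALNT6 had 228 against 864 and 235 against 657. All of these are members of a family that adds N-acetylgalactosamine to serine and threonine. MUC16, a heavily O-glycosylated membrane mucin, had 86.9 against 561, with 57.7 on J3T-1 and 15.6 on J3T-1shA, and 42.8 against 396 by its second probe set. B4GALT3 was given above with chromosome 38. No gene of the 33 measured in the N-glycan pathway or the 19 in heparan and chondroitin sulfate synthesis was over 2-fold different.

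The lists of protein synthesis and turnover were the most even part of the profile. No listed gene was over 2-fold different among 57 cytosolic ribosome, 52 translation factor, 26 aminoacyl-tRNA synthetase, 69 chaperone, 40 proteasome, 67 ubiquitin-conjugating and deubiquitinating and 35 lysosomal genes. These lists did not hold the prefoldin subunit PFDN2 or the UFM1-conjugating enzyme UFC1, both over 2-fold higher and given above with chromosome 38. The synthetases had 21 of 26 members above 0 and a median log2 ratio of 0.21. Within even families the chromosome 8 members lay below the rest. All 6 proteasome genes of chromosome 8, PSMA3, PSMA6, PSMB5, PSMC6, PSME1 and PSME2, had log2 ratios between -0.67 and -0.33, while the 33 on chromosomes other than 8, 34 and 38 had a median of 0.08. The 5 chromosome 8 splicing factors had a median of -0.62 against 0.04 for 100 elsewhere, the 5 chaperones -0.40 against 0.03 for 61, and the 5 COP, SNARE and secretory pathway genes -0.62 against -0.02 for 69.

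Members over 2-fold different in the remaining protein lists were few. CRYAB, the small heat shock protein alpha-B-crystallin, had signals of 743 on J3T-2 and 2367 on J3T-2A, with 1481 on J3T-1 and 7996 on J3T-1shA. VAMP5, a SNARE protein, had 3618 against 1497 and a second log2 ratio of 0.72. VLDLR, a lipoprotein receptor listed with the unfolded protein and amino acid stress genes, had 397 against 874 and was the only one of 29 over 2-fold different. SERPINB11, a member of the serine protease inhibitor family, had 335 against 114.

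Cell cycle genes were slightly brighter in J3T-2A without any over 2-fold among replication and mitosis genes. Of 48 DNA replication genes, 42 had log2 ratios above 0, with a median of 0.24. CDC6 and ORC1, which load the replicative helicase, had the largest of the list at 0.88 and 0.84, and 0.51 and 0.64 by their second probe sets. Of 67 mitosis genes, 52 were above 0 with a median of 0.23. Proliferation was not measured on these arrays. Of 26 cyclin, CDK and related genes, the kinases DYRK1B and PLK2 had 351 against 125 and 273 against 93.0. PLK2 is also a p53 target and was the only one of 17 over 2-fold different. BIRC3, an inhibitor of apoptosis, had 3313 against 1355, and BCL2A1, an anti-apoptotic BCL2 relative, had 1288 against 4779.9; the other 25 of 27 apoptosis genes were within 2-fold.

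Of 610 measured genes of the nucleus and cell cycle, 4 had over 2-fold higher and 9 over 2-fold lower signals, which are smaller shares than the 1.69% and 2.10% of all measured genes. NR4A2, an orphan nuclear receptor induced as an immediate early gene, had signals of 168 against 859.8, with 265 on J3T-1 and 54.0 on J3T-1shA. Of the 14 nuclear receptors and coactivators, 11 had log2 ratios below 0 (median -0.36), among them NR2F1 and NR2F2 at -0.81 and -0.84. TEAD4, a DNA-binding partner of YAP, had 526 against 1169.5, and VGLL4, which competes with YAP for TEAD proteins, had 651 against 1390.0. KLF4 had 935 against 1945, although the median over its probe sets gave a log2 ratio of 0.084, and FOS, on chromosome 8, had 419 against 1045. MXD4, an antagonist of MYC, had 160.1 against 323. The chromatin genes ARID4A, on chromosome 8, and ARID5B had 129 against 317 and 177 against 439.7, whereas SMARCA1, a remodelling ATPase, had 415 against 97.1. ARID4A had a second log2 ratio of -0.79. SYCP1, a protein of meiotic chromosomes, had 664 against 157. Of 18 homeobox, 7 histone, 9 circadian clock and 12 ETS and IRF genes, none was over 2-fold different, and 11 of the ETS and IRF factors were below 0.

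Target genes of NF-kB, the transcription factor of inflammatory signalling, were dimmer in J3T-2A. Of 19 measured targets, 8 were over 2-fold lower and 1 was over 2-fold higher, against 2.10% and 1.69% of all measured genes. The median log2 ratio of the targets was -0.47. The lower ones were CSF1, SOD2, BCL2A1, GCH1 and CCL20, given above, and SAA1, TNFAIP2 and NFKBIZ. SAA1, an acute-phase apolipoprotein, had signals of 5252 on J3T-2 and 1609 on J3T-2A, against 43.1 on J3T-1 and 14.3 on J3T-1shA, and its second probe set had 4759 and 1424. TNFAIP2, on chromosome 8, had 676 against 1692, and the nuclear regulator NFKBIZ had 279 against 643. BCL2A1 was 3.71-fold lower, and 3.71-fold by its second probe set. BIRC3, the exception, was 2.45-fold higher and 2.55-fold by its second probe set. NFKBIA, the inhibitor that NF-kB induces, lies on chromosome 8 and had 4863 against 9244, a log2 ratio of -0.93. ICAM1 and VCAM1, adhesion molecules that NF-kB induces, had 0.07 and 0.81. The median without chromosome 8, 34 and 38 members was -0.43. A list of 23 subunits and regulators of the pathway, which shares members with the targets, had a median of 0.04, and its members over 2-fold different were BIRC3, higher, and TNFAIP2 and NFKBIZ, lower. In J3T-1 over J3T-1shA the targets had a median of 0.48 with 1 of 12 over 2-fold higher and none lower, and the difference between the comparisons was not tested.

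Secreted acute-phase, complement and coagulation genes were lower in the same pair. The median of 10 measured genes was -0.68. Against 2.10% and 1.69% of all measured genes, 4 of the 10 were over 2-fold lower and none was over 2-fold higher. Besides SAA1 these were TFPI, the inhibitor of the tissue factor pathway, with signals of 5595 on J3T-2 and 2529 on J3T-2A, PROCR, the protein C receptor, with 1605 on J3T-2 and 728 on J3T-2A, and C1S, a protease of the first complement component, with 2574 on J3T-2 and 1223 on J3T-2A. TFPI and C1S had log2 ratios of -1.31 and -0.78 by their second probe sets. Further probe sets of C1S gave -0.63 and -0.46, so only its brightest one was over 2-fold lower. C1S was at 239 on J3T-1 and 79.0 on J3T-1shA. CLU, the chaperone clusterin and among the brightest genes on the arrays, had a log2 ratio of 0.00.

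In the antigen presentation, pattern recognition and JAK-STAT lists, 1 gene in each direction was over 2-fold different. The lower one of the first was NT5E, the adenosine-making enzyme given above, which does not itself present antigen. It is also counted in the share of inflammation and immunity genes. DLA-64, a dog major histocompatibility class I gene whose probe set may share sequence with its relatives, had signals of 381 against 139.9. NLRP9 and CLEC11A, from the pattern recognition list, had 327 against 129 and 212 against 489.6. JAK2, a kinase of cytokine receptors, had 689 against 1399 but a second log2 ratio of -0.02, and SOCS2, a feedback inhibitor, had 503 against 225.

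A few neural and glial genes held some of the largest ratios, while their lists did not move together. Of 9 glial and neural stem cell genes, 3 were over 2-fold higher and none lower. Their median log2 ratio was -0.01, with 5 below 0. Of 6 neuropeptides and secreted neural factors, 2 were over 2-fold higher and none lower, with a median of 0.24. Among all measured genes 1.69% were over 2-fold higher and 2.10% lower. PHYHIPL, which is expressed in brain and has no firmly known role, had signals of 236 on J3T-2 and 3409 on J3T-2A, 3976 on J3T-1 and 3233 on J3T-1shA, and 117 and 1547 by its second probe set. J3T-2 was the only array under the limit. ECRG4, a secreted precursor of small peptides, had 20.6 on J3T-2 and 456 on J3T-2A, with 278 on J3T-1 and 7262 on J3T-1shA, so that its highest signal lay in the knockdown line. EPDR1, an ependymin-related secreted protein, had 5788 against 1651 and 2948 against 899 by its second probe set. GPM6A, a neuronal membrane glycoprotein, had 760.2 against 201. None of 19 synaptic genes was over 2-fold different (median -0.09), and NEFL, the neurofilament gene given above, was over 2-fold lower.

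Outside the lists, the rule for the largest and brightest ratios also named TMEM47, a membrane protein of cell junctions, at 1317 against 135, CCDC160 at 980.0 against 186 and the unnamed locus LOC485469 at 1802 against 549. The angiogenic and matrix genes it named were CCN2, ADM, THBS1 and SRPX2, higher in J3T-2A, with HGF lower.

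Of 10 endothelial markers, 9 were under the limit on both arrays, including CDH5, VWF, KDR and TEK, and the summed signal of the list was 1402 on J3T-2 and 560 on J3T-2A, of which PECAM1 made up 773 and 161. For microglia and macrophages, C1QA was the only one of 10 over the limit, and the sums were 782 and 668. The leukocyte marker PTPRC was at 23.3 and 11.5. Of 9 astrocyte markers, SLC1A3 and GJA1 were measured, and GFAP, the defining intermediate filament of astrocytes, was at 21.6 and 8.2. NEFL, TUBB3 and MAP2 were the measured ones of 9 neuronal markers, with SNAP25 and RBFOX3 under the limit. KRT8 was the only one of 5 epithelial markers measured, while KRT18, CDH1 and EPCAM were under the limit. The neuronal sum was 16398 and 7504, most of it from NEFL, and the astrocyte sum was 3221 and 5844. Of 9 fibroblast and pericyte markers, the 4 measured ones are matrix genes and gave the highest sum, 53830 on J3T-2 and 72670.5 on J3T-2A. COL1A1, COL1A2 and LUM had 11899 against 3799, 30514 against 23488 and 29213 against 25065, while DCN had 795 against 1292. ACTA2, PDGFRB and RGS5 were under the limit on both arrays. The part of these markers in the differences was not tested.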

How the data were processed

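Total RNA of 4 canine glioma lines was hybridized to 1 Affymetrix Canine Genome 2.0 array each. The deposited values are MAS5 signals, an intensity per probe set on a linear scale, which the authors scaled to a common trimmed mean. The 2% trimmed means of the deposited arrays were 495.8 to 496.0, 5 times the stated target of 100, and the signal limit was set at 250 accordingly. Depth does not apply to arrays, and precision is limited by 1 array per line. Detection calls and scanner images were not used here.

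Of 29693 annotated probe sets, 29254 had 1 gene symbol and 439 had several, and the latter were left out. Each gene was read from the probe set that was brightest on average across the 4 arrays, and a gene entered when J3T-2A or J3T-2 reached the limit. Log2 ratios were taken with no pseudocount, and a ratio over 2 was counted, with no test. Gene lists and the genes described were chosen with earlier results of these data known. Lists written by name stem were cleaned by symbol spelling, and genes of the angiogenic, matrix and interferon lists were removed from the others. Named were ANXA2, in each direction the 10 largest ratios among genes over the limit on both arrays and the 5 brightest others over 2-fold, and every list member over 2-fold, apart from those of 1 list that is not reported here. Chromosomes and gene order came from the RefSeq table of UU_Cfam_GSD_1.0. The build behind the array's probe sets is not given in the sources used here, and medians of 15 neighbouring genes were taken over rank. A planned description of promoter motifs was not run, since no sequence was used here. The alternatives were limits of 500 or none, a pseudocount of 80, quantile normalization, median centring and other rules for the probe set. The ratio, list and call steps were tested on simulated data. Python 3.11.15, numpy 2.4.6, pandas 2.3.3 and matplotlib 3.10.9 were used.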

Additional observations from a re-analysis of the deposited data

How the results depend on the processing

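The number of genes over 2-fold depended on the handling of low signals. With a limit of 500, 75 genes were higher and 72 lower, and with no limit 1416 were higher and 1459 lower, the added genes being under 250 on both arrays. With a pseudocount of 80, 88 were higher and 86 lower. Quantile normalization gave 122 and 133, median centring 116 and 143, the median over each gene's probe sets 94 and 118, and leaving out chromosomes 8, 34 and 38, an alternative chosen after seeing the data, 107 and 124. Of 145 genes over 2-fold chosen by the naming rule, 43 were under 2-fold with the pseudocount, 8 of 145 after quantile normalization and 1 of 145 after median centring. With the median over probe sets, 13 of the 109 that could be compared were under 2-fold, and the sign turned for BIN1 (log2 ratio -0.070) and KLF4 (0.084); the cause was not tested. Over 8 alternatives the median log2 ratio lay between -0.53 and -0.46 for cholesterol synthesis, 0.22 and 0.25 for DNA replication, 0.21 and 0.24 for mitosis, -0.82 and -0.43 for NF-kB targets, -0.98 and -0.31 for acute-phase genes, -1.60 and -0.59 for chemokines and 0.21 and 0.59 for contractile genes. No paired analysis was possible because each line has 1 array, and for the same reason no replicate could be left out. Differences in genes whose dimmer signal was under 250 are the least certain in size.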

Other observations

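Genes over 2-fold different that none of the lists held numbered 41 higher and 62 lower, and the following were chosen after their values were seen. Bright ones among the higher genes were MICAL2, an oxidase that depolymerizes actin, with signals of 1410.4 on J3T-2 and 4088 on J3T-2A, MYOF, the membrane repair protein myoferlin, with 888 on J3T-2 and 1983 on J3T-2A, and PTHLH, the parathyroid hormone-related peptide, with 1064 on J3T-2 and 2364 on J3T-2A. GAP43, a protein of growing axons and of glioma cell extensions, had 734 on J3T-2 and 1711 on J3T-2A. CRYZ, a quinone reductase, had 1646 on J3T-2 and 3761 on J3T-2A, and FOLH1B, a relative of the folate hydrolase PSMA, had 2340.3 on J3T-2 and 5058 on J3T-2A. The small leucine-rich proteoglycans OGN and OMD, which are neighbours on chromosome 1, had 289 against 30.1 and 368 against 50.3, each from well under the limit. P3H2, a collagen prolyl hydroxylase, had 314 against 75.7 and was the only gene of chromosome 34 over 2-fold higher.

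Among the lower genes in no list, SNCG, gamma-synuclein, had signals of 28238 on J3T-2 and 13868 on J3T-2A, with 21068 on J3T-1 and 6296 on J3T-1shA. SQOR, a mitochondrial sulfide-oxidizing enzyme, had 2347 on J3T-2 and 825 on J3T-2A, and 1009 and 325 by its second probe set. TCIM, a small regulator linked to Wnt signalling, had 2856 on J3T-2 and 1081 on J3T-2A. PTGES, an inducible prostaglandin E synthase, had 1337 on J3T-2 and 636 on J3T-2A, and APOD, a lipid-binding lipocalin, had 563 on J3T-2 and 72.2 on J3T-2A. BACE2, an aspartyl protease, had 484 on J3T-2 and 81.5 on J3T-2A, with 42.3 and 31.0 on J3T-1 and J3T-1shA. NDRG1, a stress-responsive gene, and its relative NDRG2 had 249 against 500.2 and 215 against 507. SELP, the adhesion receptor P-selectin, had the largest ratio of all lower genes but only 261 on J3T-2 and 6.20 on J3T-2A.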
